A study of Mus musculus with 6 samples.

Results

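The surrogate and lambda light chain genes of the mouse comprise Igll1, Vpreb1, Vpreb2, Vpreb3 and Iglc1. They were taken as the rows of the deposited gene table whose Entrez identifiers map to those symbols, and all 5 were found among 26286 genes. All 5 also passed the filter on low counts, which kept 12275 genes for testing. RNA-seq had been performed on a B progenitor acute lymphoblastic leukemia in which Pax5, a transcription factor of B cell commitment, can be restored by doxycycline (dox). The leukemia, named Tri-transgenic leukemia A024 in the labels, was recovered by fluorescence-activated sorting of marrow from leukemic Rag1 knockout mice. Group 1 held 3 libraries from untreated mice, sorted as GFPhigh cells. Group 2 held 3 libraries from mice given dox food for 3 days, sorted as GFPmid cells. The design addresses which transcripts differ once Pax5 is restored.

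Treatment and GFP gate changed together, so their contributions cannot be told apart. The labels do not describe the transgenes or the promoters that drive them, and dox-treated cells without an inducible construct were not analysed here. All 6 libraries came from mice carrying the same leukemia, so that replicates measure the spread between mice and not between leukemias. Hosts lacking Rag1 make no mature B or T cells of their own, but they keep B cell progenitors that stop before the pre-B cell stage, natural killer cells and myeloid cells. Such host progenitors transcribe the surrogate light chain genes too, and their share in the sorted cells was not tested.

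The surrogate light chain stands in for a conventional light chain before light chain genes have been rearranged. It consists of a VpreB protein (Vpreb1 or Vpreb2) bound to lambda5 (Igll1), and it pairs with a newly made mu heavy chain (Ighm). Together with the signalling chains Cd79a and Cd79b, these form the pre-B cell receptor, which signals through Syk and Src family kinases. Vpreb3 is a related protein that stays inside the cell and binds newly made immunoglobulin chains. Iglc1 encodes a constant region of the conventional lambda light chain, which is used by a small minority of mouse B cells, the majority using kappa (Igkc).

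Vpreb1 and Vpreb2 are close copies, and how far their reads can be separated bears on every value given for them. Their coding sequences in GENCODE M21 are each 429 bases long, and 420 bases are identical (97.9%). The stretch of 60 coding bases with the most differences is shown first, from coding position 328 to 387, with the 5 differing bases in capitals.

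Vpreb1: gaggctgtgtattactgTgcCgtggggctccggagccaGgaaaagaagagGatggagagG
Vpreb2: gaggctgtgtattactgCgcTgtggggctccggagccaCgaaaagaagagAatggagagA

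Of the 380 windows of 50 bases in either coding sequence, 162 (42.6%) occur without a mismatch in the other gene. No such window was shared by Igll1, Vpreb3 or Iglc1 with any other annotated transcript. The likeness of the VpreB genes continues upstream of the coding sequence. In GRCm38.p6, 106 bases on the minus strand at chr16:16869256-16869361 before Vpreb1 match 106 bases on the plus strand at chr16:17980315-17980420 before Vpreb2, apart from the 2 bases in capitals.

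Vpreb1 upstream: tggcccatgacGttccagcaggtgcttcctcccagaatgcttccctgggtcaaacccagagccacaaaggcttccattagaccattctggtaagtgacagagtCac
Vpreb2 upstream: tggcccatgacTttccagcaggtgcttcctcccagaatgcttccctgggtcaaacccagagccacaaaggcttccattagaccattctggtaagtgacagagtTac

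The other surrogate light chain genes had upstream sequences of their own. The 250 bases before the RefSeq start of Igll1 (chr16:16863986-16864235, minus strand) and of Vpreb3 (chr10:75948050-75948299, plus strand) are given with matches to 4 motifs in capitals. The motifs, searched on both strands, were the octamer ATTTGCAT, the E-boxes CAGCTG and CAGGTG, and CCCNNGGG, the core of sites bound by Ebf1. They were chosen with the results known.

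Igll1 upstream: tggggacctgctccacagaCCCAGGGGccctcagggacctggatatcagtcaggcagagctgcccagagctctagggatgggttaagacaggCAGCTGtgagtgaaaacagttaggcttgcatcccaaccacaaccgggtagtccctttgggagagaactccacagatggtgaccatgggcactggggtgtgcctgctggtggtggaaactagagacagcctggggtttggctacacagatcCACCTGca
Vpreb3 upstream: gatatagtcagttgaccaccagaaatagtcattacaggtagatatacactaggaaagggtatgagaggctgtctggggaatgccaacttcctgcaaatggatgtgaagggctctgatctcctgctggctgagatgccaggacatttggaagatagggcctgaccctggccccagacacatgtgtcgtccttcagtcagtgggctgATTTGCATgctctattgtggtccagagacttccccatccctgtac

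The octamer, bound by Pou2f factors and their partner Pou2af1, occurred 45 to 38 bases before the start of Vpreb3 and in none of the windows of Igll1, Vpreb1 and Vpreb2. Among 27025 RefSeq windows of the same length 1.61% held it. Igll1 held CCCNNGGG at 231 to 224 bases (11.7% of windows), CAGCTG at 158 to 153 bases (12.8% of windows) and CAGGTG, read on the other strand as CACCTG, at 8 to 3 bases (17.1% of windows). CAGGTG also occurred at 88 to 83 bases before Vpreb1 and at 232 to 227 bases before Vpreb2, and CAGCTG at 60 to 55 bases before Vpreb2. The CAGGTG of Vpreb1 and that of Vpreb2 are the same site of the shared stretch printed above. That stretch lies farther from the RefSeq start of Vpreb2, so the windows of Vpreb1 and Vpreb2 do not line up. These matches describe letters and not binding. The counts themselves were made on the older build mm9, so the positions above belong to the sequences only.

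After dox, transcripts of 3 of the 5 genes, Igll1, Vpreb1 and Vpreb3, were 1.63- to 1.75-fold higher, while Vpreb2 at 1.06-fold was not called and Iglc1 varied too widely between mice to be called. The test was edgeR's quasi-likelihood test with Benjamini-Hochberg adjustment over all 12275 genes, called at an adjusted p under 0.05. Of all genes tested, 27.0% were called higher and 26.6% were called lower, against 3 and 0 of the 5. The dox libraries lay wholly above the untreated libraries for the same 3 genes and for 31.2% of all genes. In bulk samples, more cells expressing a gene and more RNA per cell cannot be told apart.

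**Figure D1:**
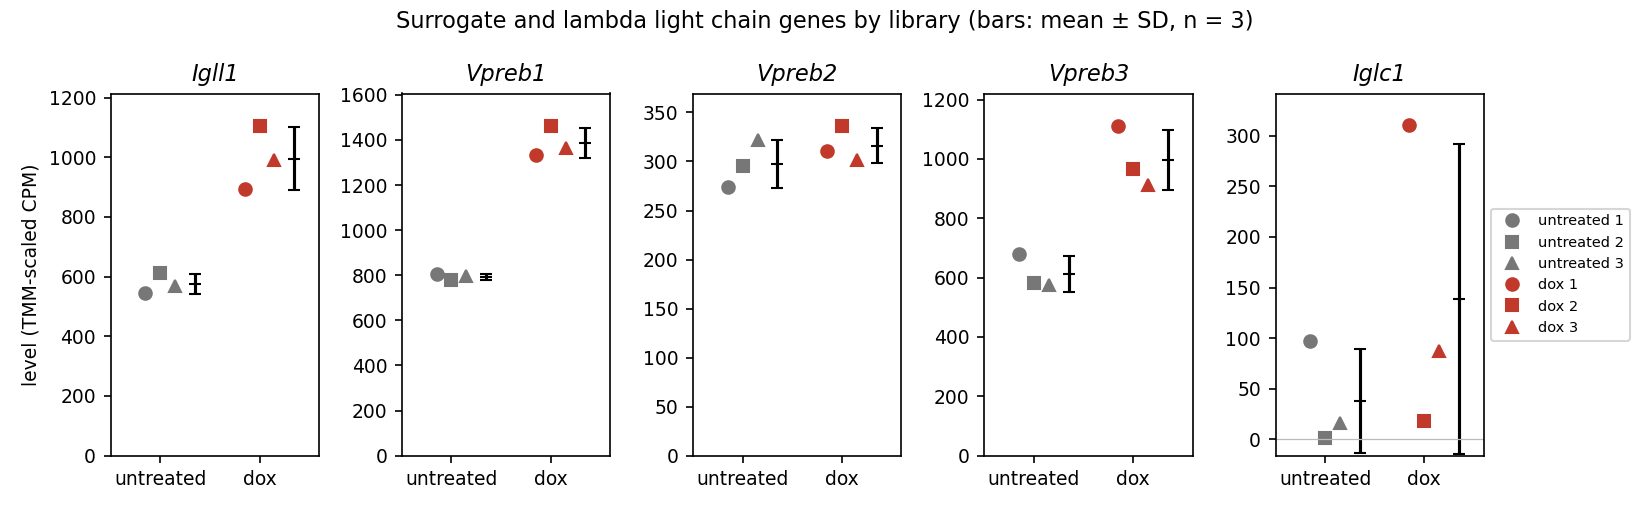
Level of each of the 5 genes in each library, as TMM-scaled CPM (vertical axis, a separate range for each gene), with untreated and dox libraries side by side; points are libraries, bars the mean ± SD of 3. Igll1, Vpreb1 and Vpreb3 show separated groups (Vpreb1 778 to 806 CPM against 1335 to 1459.8 CPM), Vpreb2 overlapping ones, and Iglc1 a spread from 0.872 to 311 CPM.

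Igll1 (Entrez 16136) encodes lambda5, the partner of VpreB in the surrogate light chain. Its reads numbered 7779, 9120 and 8358 in the untreated libraries and 13557, 15849 and 15476 after dox. Scaled to a common library size with TMM factors (CPM), these were 544, 612 and 568 CPM against 892, 1103 and 991 CPM. The lowest dox library lay above the highest untreated one. The mean went from 575 ± 34.5 to 995 ± 106 CPM (SD, n = 3 each), a log2 fold change of 0.79 (SE 0.09, edgeR adjusted p = 0.000125).

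Vpreb1 (Entrez 22362), the first VpreB gene, was the steadiest of the 5. Its reads numbered 11527, 11596 and 11688 in the untreated libraries and 20288, 20971 and 21304 after dox, or 806, 778 and 795 CPM against 1335, 1459.8 and 1364 CPM. The untreated libraries were within 1.04-fold of each other and the dox libraries within 1.09-fold. The mean rose from 793 ± 14 to 1386 ± 65.3 CPM (SD, n = 3 each), with a log2 fold change of 0.81 (SE 0.07, edgeR adjusted p = 3.02e-05).

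Vpreb3 (Entrez 22364), the intracellular VpreB relative, is on chromosome 10, away from the other 4 genes on chromosome 16. Its reads numbered 9739, 8661 and 8437 in the untreated libraries and 16860, 13896 and 14233 after dox, or 681, 581 and 573 CPM against 1109.5, 967 and 911 CPM. The groups did not overlap, and replicate 1 was the highest in each. The mean rose from 612 ± 59.8 to 996 ± 102 CPM (SD, n = 3 each), a log2 fold change of 0.70 (SE 0.10, edgeR adjusted p = 0.000376).

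Vpreb2 (Entrez 22363), the near copy of Vpreb1, was not called. Its reads numbered 3918, 4405 and 4741 in the untreated libraries and 4726, 4823 and 4714 after dox, or 274, 296 and 322 CPM against 311, 336 and 302 CPM. The groups overlapped, with 2 of the 3 dox libraries below the highest untreated one. The mean was 297 ± 24.3 against 316 ± 17.5 CPM (SD, n = 3 each), a log2 fold change of 0.09 (SE 0.08, edgeR adjusted p = 0.372). Which of these reads came from stretches shared with Vpreb1, and how the counting treated such reads, is not given in the sources used here. With the reads of both VpreB genes summed into 1 gene, the log2 fold change of the sum was 0.64 (SE 0.07, edgeR adjusted p = 0.000117).

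The ratio of Vpreb2 to Vpreb1 does not depend on library depth. Per base of deposited gene length, Vpreb2 stood at 0.609, 0.680 and 0.726 of Vpreb1 in the untreated libraries and at 0.417, 0.412 and 0.396 after dox. The 2 sets of ratios did not overlap. On the log2 scale the mean ratio fell by 0.71 after dox (exact two-sided permutation test, p = 0.1, the smallest that 3 against 3 libraries allow; 0.6 after adjustment over the 6 ratios tested), so that the difference exceeded the spread but could not pass the threshold in this design. The deposited length of Vpreb2, 429 bases, equals its coding length, whereas that of Vpreb1, 768 bases, takes in untranslated sequence. The absolute ratio therefore carries this difference in annotation, which is the same in all 6 libraries.

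The ratio between the pair that makes up the surrogate light chain hardly moved. Vpreb1 stood at 1.68, 1.44 and 1.58 of Igll1 per base in the untreated libraries and at 1.7, 1.5 and 1.56 after dox. The mean log2 ratio differed by 0.02 (exact two-sided permutation test, p = 0.9, adjusted 0.9). Vpreb3 relative to Vpreb1 differed by −0.10 on the log2 scale (exact permutation test, p = 0.5, adjusted 0.6), with overlapping groups. The 2 genes of the pre-B cell receptor also kept overlapping ratios to the mu heavy chain, with log2 differences of −0.20 for Igll1 to Ighm (exact permutation test, p = 0.3, adjusted 0.6) and −0.19 for Vpreb1 to Ighm (exact permutation test, p = 0.2, adjusted 0.6). A test of 3 against 3 libraries cannot show these ratios to be equal. Iglc1 to Igll1, the remaining ratio tested, differed by 2.01 on the log2 scale (exact permutation test, p = 0.5, adjusted 0.6), with overlapping groups. Vpreb3 to Ighm, a ratio chosen after its values were seen, was not tested, and its groups did not overlap. Per base it stood at 0.838, 0.804 and 0.836 in the untreated libraries and at 0.709, 0.632 and 0.689 after dox.

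**Figure D2:**
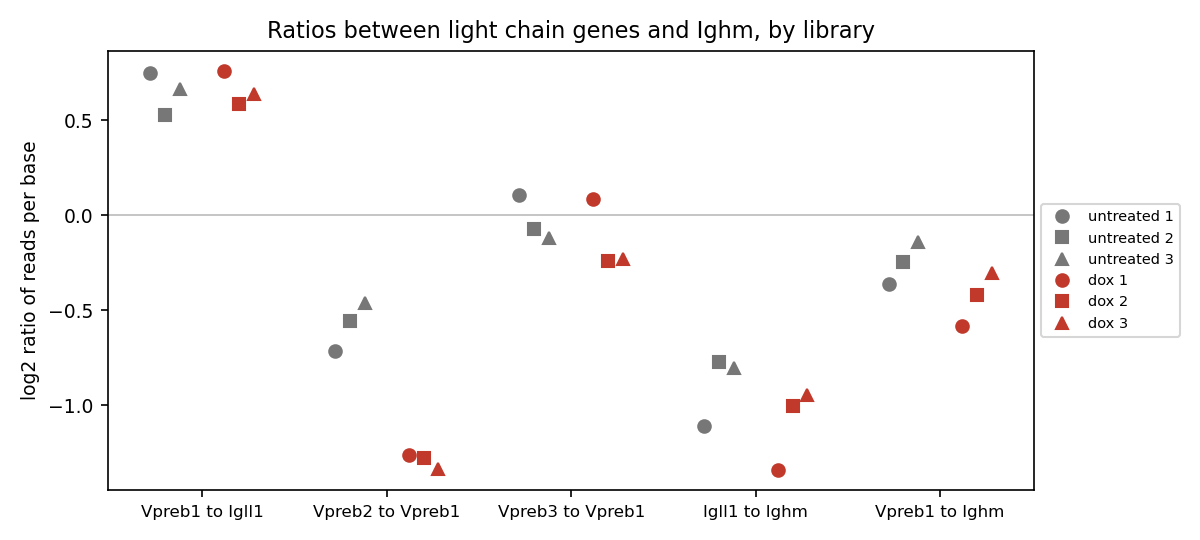
Log2 ratio of reads per base of gene length (vertical axis) for 5 pairs of genes, with 1 point for each library, untreated on the left and dox on the right of each pair. The ratio of Vpreb2 to Vpreb1 is lower in all 3 dox libraries (−1.34 to −1.26) than in any untreated library (−0.72 to −0.46), and the points of the other 4 pairs overlap.

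Ordered by level per length (RPKM, which is CPM per kilobase of deposited gene length), the untreated cells held Vpreb1 at 1032 ± 18.2, Vpreb3 at 1016 ± 99.4, Vpreb2 at 693 ± 56.5, Igll1 at 660.4 ± 39.7 and Iglc1 at 119 ± 161 RPKM (SD, n = 3). Vpreb1 and Vpreb3 did not differ beyond their spread, and neither did Vpreb2 and Igll1. After dox the order was Vpreb1 at 1805 ± 85.0, Vpreb3 at 1655 ± 169.8, Igll1 at 1144 ± 121, Vpreb2 at 737 ± 40.9 and Iglc1 at 433 ± 478 RPKM (SD, n = 3). Per length, Igll1 and Vpreb2 thus separated only after dox, when the lowest Igll1 library, at 1025 RPKM, lay above the highest Vpreb2 library, at 783 RPKM. The highest dox library of Iglc1, at 971 RPKM, lay between them. The place of Vpreb2 in both orders rests on its deposited length, which takes in the coding sequence alone.

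Iglc1 (Entrez 110785), the lambda constant gene, was set apart by its spread. Its reads numbered 1387, 13 and 242 in the untreated libraries and 4721, 260 and 1360 after dox, or 96.9, 0.872 and 16.5 CPM against 311, 18.1 and 87.1 CPM. The highest library exceeded the lowest 111-fold among untreated mice and 17.2-fold among dox mice, and the groups overlapped. The means were 38.1 ± 51.6 and 139 ± 153 CPM (SD, n = 3 each), and the log2 fold change of 1.87 (SE 1.15) was not called (edgeR adjusted p = 0.198). The value rested on single mice: it was 4.0 (edgeR adjusted p = 0.0346) without untreated replicate 1, 0.47 (edgeR adjusted p = 0.750) without dox replicate 1, and 1.29 (edgeR adjusted p = 0.341) without untreated replicate 2. Of the 12275 genes, 1 (Iglv1) had a larger SD of log2 CPM than Iglc1 among the untreated libraries and 2 (Iglv2 and Ly6k) had a larger one after dox, against medians over all genes of 0.106 and 0.127. The SD of Iglc1 was 3.32 and 2.05.

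Iglc1 closely resembles the 3′ part of Igll1, and its sequence shows how far reads of the lambda constant genes can be told from each other. The first 60 bases of the Iglc1 constant exon in GENCODE M21 are shown with the matching bases of Iglc3 and Igll1, in which capitals mark the 12 and 20 bases that differ from Iglc1.

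Iglc1: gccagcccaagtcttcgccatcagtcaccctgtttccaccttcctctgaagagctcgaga
Iglc3: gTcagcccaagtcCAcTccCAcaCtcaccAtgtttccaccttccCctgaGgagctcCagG
Igll1: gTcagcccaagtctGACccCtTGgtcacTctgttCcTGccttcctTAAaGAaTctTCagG

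Over the aligned coding bases Iglc1 was 78.2% identical to Igll1 and 75.4% identical to Iglc3. The joining segment Iglj1, the tested gene next to Iglc1 in the RefSeq gene order, also has a counterpart in Igll1, at bases 369 to 406 of its transcript. The 38 bases of each follow, with the 12 differing bases in capitals.

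Iglj1: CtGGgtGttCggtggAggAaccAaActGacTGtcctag
Igll1: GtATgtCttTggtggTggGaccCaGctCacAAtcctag

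The variable and joining segments used with Iglc1 had their high and low values in the same mice. Iglv1, the variable segment most often used with lambda chains, had 959, 7 and 186 reads in the untreated libraries and 3876, 276 and 1231 after dox (log2 fold change 2.15, SE 1.1, edgeR adjusted p = 0.128, not called). Iglj1 had 69, 0 and 11 reads against 349, 18 and 111 (2.51, SE 1.08, edgeR adjusted p = 0.0765, not called). Both rested on single mice, as Iglc1 did. Iglv1 was 4.17 (edgeR adjusted p = 0.0257) without untreated replicate 1, 2.65 (0.0335) without dox replicate 2, 1.56 (0.226) without untreated replicate 2 and 0.88 (0.516) without dox replicate 1. Iglj1 was 4.78 (edgeR adjusted p = 0.0245) without untreated replicate 1, 3.03 (0.00991) without dox replicate 2, 1.91 (0.175) without untreated replicate 2 and 1.19 (0.372) without dox replicate 1, and was called without the filter on low counts (0.0426). In both groups replicate 1 was highest and replicate 2 lowest for Iglc1, Iglv1 and Iglj1. The labels do not say whether equal replicate numbers mark related mice.

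The other lambda segments mostly had the same mice high and low. Iglc3, a second lambda constant gene that shares 22.3% of its 50-base windows with Iglc2 and 2010309G21Rik, had 715, 75 and 302 reads against 2972, 567 and 1144. It was called higher with a log2 fold change of 2.03 (SE 0.72, edgeR adjusted p = 0.0380), with overlapping groups. That call was lost with DESeq2 (adjusted p = 0.0817) and in edgeR without untreated replicate 2 (adjusted p = 0.0815), untreated replicate 3 (0.115), dox replicate 1 (0.160; log2 fold change 1.17) or dox replicate 3 (0.0562). Iglv2 had 12, 0 and 1 reads against 194, 5 and 68 and was called higher (4.26, SE 1.22, edgeR adjusted p = 0.0155), also with overlap. The Iglv2 call was lost in limma voom (adjusted p = 0.0924) and in edgeR without untreated replicate 2 (0.0547), untreated replicate 3 (0.0591) or dox replicate 1 (0.0526; log2 fold change 2.97).

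Iglv3 was the lambda segment whose groups separated. It had 34, 15 and 28 reads in the untreated libraries and 203, 130 and 97 after dox, and rose by 2.43 on the log2 scale (SE 0.35, edgeR adjusted p = 0.000407). Iglc2 had 12, 4 and 8 reads against 38, 8 and 15 and was not called (1.28, SE 0.61, edgeR adjusted p = 0.103). The kappa constant gene Igkc, used by most mouse B cells, lacked this spread. It had 4753, 5078 and 4389 reads in the untreated libraries against 8788, 8284 and 7374 after dox, and rose by 0.74 on the log2 scale (SE 0.10, edgeR adjusted p = 0.000213). Per base, Iglc1 stood at 0.292, 0.00266 and 0.0552 of Igkc in the untreated libraries and at 0.537, 0.0314 and 0.184 after dox, so that the lambda share differed more between mice of 1 group than the kappa level did.

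**Figure D3:**
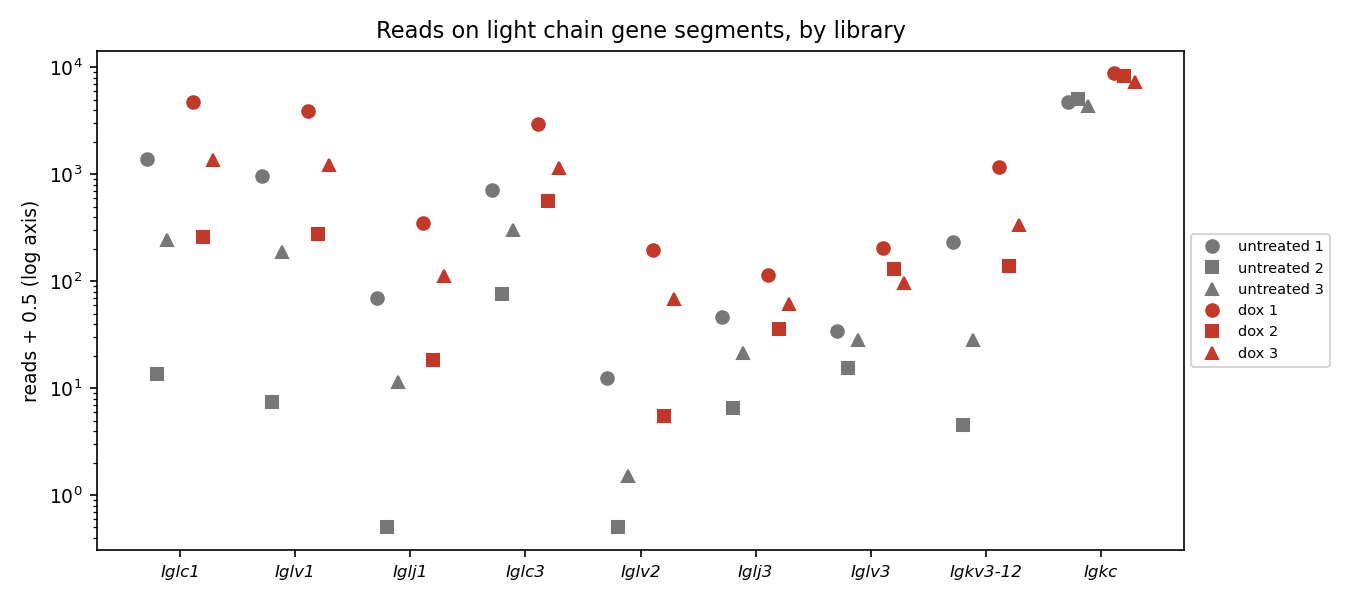
Reads on lambda and kappa light chain segments in each library, plotted as reads + 0.5 on a log axis, with untreated libraries on the left and dox libraries on the right of each gene. Iglc1, Iglv1 and Iglj1 are highest in replicate 1 and lowest in replicate 2 of both groups, whereas Igkc lies between 4389 and 5078 reads untreated and between 7374 and 8788 reads after dox.

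The genes whose profile over the 6 libraries was nearest to that of Iglc1 were Iglv1, Iglj1 and the kappa variable segment Igkv3-12, with root mean square differences of centred log2 CPM of 0.264, 0.460 and 0.714. The comparison took in tested genes averaging 5 CPM or more. Igkv3-12 had 234, 4 and 28 reads untreated and 1169, 140 and 334 after dox. For Igll1 the nearest were Zscan29 (0.0489), Ikzf3 (0.0506), which encodes the Ikaros family factor Aiolos, and Syne1 (0.0530). For Vpreb1 they were Nt5dc3 (0.0323), Il17ra (0.0327) and Zfp945 (0.0357). For Vpreb2 they were Slc9a8 (0.0186), Limk2 (0.0298) and Slc35e3 (0.0306), and for Vpreb3 they were Zfp513 (0.0413), Tpst2 (0.0468) and Mterf2 (0.0488). No other member was among the 3 nearest genes of any of the 5.

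Igll1 and Vpreb1 are next to each other in the RefSeq gene order, and the tested genes around the pair were not called. Their log2 fold changes were 0.10 for Dnm1l, 0.22 for the pseudogene Rpl31-ps12, 0.22 for Top3b (edgeR adjusted p = 0.0561) and 0.05 for Ppm1f. Beside Vpreb2, the citrate carrier gene Slc25a1 fell by 1.12 on the log2 scale and Dgcr6 rose by 1.02, while Ess2 at −0.18 and Zdhhc8 at 0.11 were not called. Beside Vpreb3, Gm5134 rose by 1.19 and Zfp280b fell by 0.44, while Chchd10 at −0.11 and Gm867 at −0.04 were not called. Beside Iglc1, Mrpl40 fell by 0.45 and the histone chaperone gene Hira fell by 0.33.

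The mu and delta heavy chains, which pair with light chains in receptors, and the signalling chains Cd79a and Cd79b were called higher after dox. The list of receptor chains they belong to also holds the kappa constant gene, 5 lambda segments and Jchain. Of its 11 tested genes, 8 were called higher, 1 lower and 2 were not called (27.0% of all genes tested were called higher and 26.6% lower). The median log2 fold change of the list was 1.28, which is the value of Iglc2, a gene not called, against 0.01 over all genes tested. Ighm stood at 2011, 1789.5 and 1700.1 CPM in the untreated libraries and at 3878, 3789.7 and 3275 CPM after dox, with no overlap. Its log2 fold change was 0.99 (SE 0.10, edgeR adjusted p = 6.22e-05). The smallest p-values were those of the signalling chains Cd79b (1.15, SE 0.08, edgeR adjusted p = 1.02e-05) and Cd79a (0.96, SE 0.10, edgeR adjusted p = 5.08e-05) and of Ighd, the delta heavy chain (1.74, SE 0.17, edgeR adjusted p = 3.95e-05). Jchain, which links secreted antibodies into polymers, was the gene called lower, at −1.72 (SE 0.41, edgeR adjusted p = 0.00597). Iglc2 and Iglv1 were those not called.

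**Figure D4:**
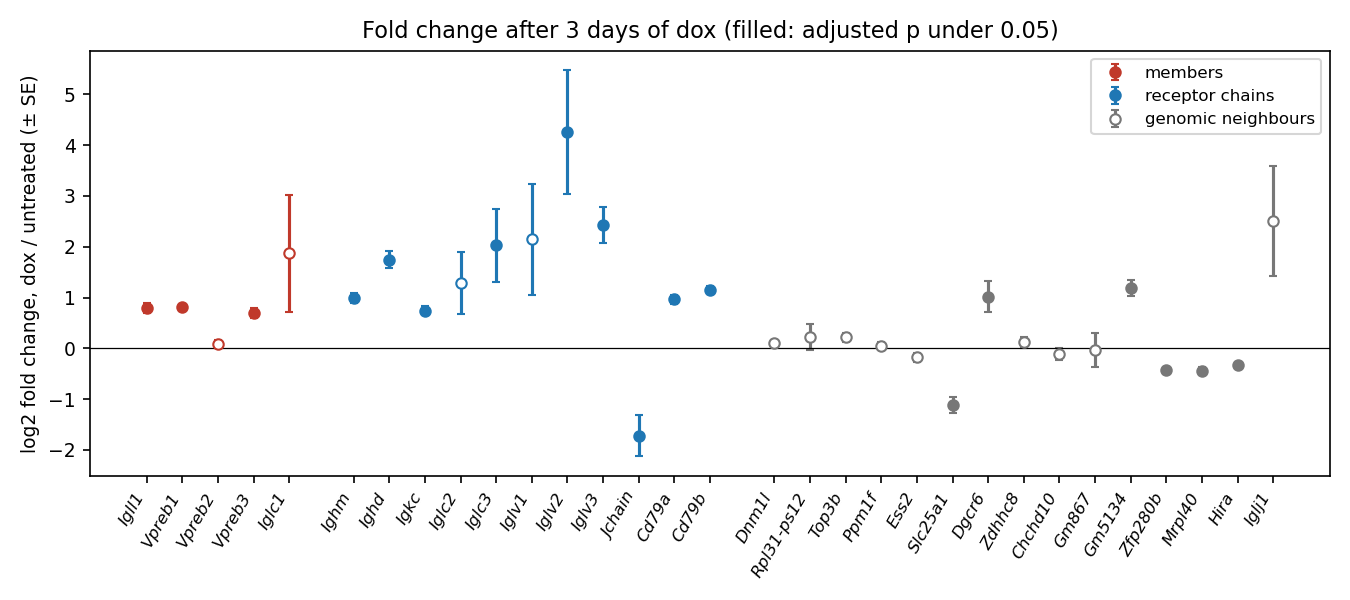
Log2 fold change, dox over untreated, with its SE (vertical axis) for the 5 light chain genes, the receptor chain genes and the genomic neighbours; filled points passed an edgeR adjusted p of 0.05. Igll1 (0.79), Vpreb1 (0.81) and Vpreb3 (0.70) are filled, Vpreb2 (0.09) lies near 0, and Iglc1 (1.87) has an SE of 1.15.

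The kinases and adaptors downstream of the pre-B cell receptor carry its signal into the cell. Of 20 tested signalling genes, 15 were called higher and 1 lower, beside 27.0% and 26.6% of all genes tested, with 4 not called (Zap70, Fyn, Pik3r1 and Vav1) and a median log2 fold change of 0.53. The smallest p-values belonged to the Src family kinase Lyn (1.66, SE 0.07), the adaptor Pik3ap1 (2.07, SE 0.14) and Syk (1.00, SE 0.08), and the gene called lower was the phospholipase Plcg2 (−0.25, SE 0.08). The Plcg2 call was lost in edgeR without untreated replicate 2 (adjusted p = 0.120), untreated replicate 3 (0.0867) or dox replicate 1 (0.0592).

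The listed transcriptional regulators moved unevenly. Some of them, among these Ebf1, the E proteins, Pax5 and Ikaros family members, are known to act on the surrogate light chain genes. Of 23 tested regulators, 15 were called higher, 2 lower and 6 were not called, beside 27.0% higher and 26.6% lower of all genes tested, with a median log2 fold change of 0.30. Pax5 stood at 154, 93.5 and 105 CPM in the untreated libraries and at 227, 281 and 231 CPM after dox, and rose by 1.07 on the log2 scale (SE 0.17, edgeR adjusted p = 0.000695). Ebf1, an activator of Igll1 and Vpreb1, changed by 0.25 (SE 0.09, edgeR adjusted p = 0.0410). The Ebf1 call was lost in edgeR without untreated replicate 1 (adjusted p = 0.108), untreated replicate 3 (0.148), dox replicate 1 (0.0590) or dox replicate 2 (0.114), and without the filter on low counts (0.0688). Ikzf3 rose by 0.76 and Spib, an Ets family factor, by 0.98, and the E protein gene Tcf4 rose by 0.56. The genes called lower were Myc, at −1.59 (SE 0.11), and Runx1, at −0.77 (SE 0.12).

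Recombination genes act on the conventional light chain loci that replace the surrogate chain. Of 12 tested, 7 were called higher, 2 lower (Xrcc5 at −0.92 and Hmgb1 at −0.69) and 3 were not called (Dntt, Prkdc and Nhej1), with a median log2 fold change of 0.51. Of all genes tested, 27.0% were called higher and 26.6% lower. Rag1, a subunit of the recombinase, stood at 236, 62.6 and 98.0 CPM in the untreated libraries and at 1677, 1172 and 1268 CPM after dox. Rag2, the other subunit, stood at 3.22, 0.335 and 1.02 CPM against 35.2, 28.6 and 28.2 CPM and rose by 4.34 on the log2 scale (SE 0.42, edgeR adjusted p = 4.54e-05). For Rag1 replicate 1 was the highest and replicate 2 the lowest in both groups, as for Iglc1, and the untreated libraries of Rag2 had the same order. The polymerase gene Polm rose by 4.12 (SE 0.30) and Dclre1c, which encodes the hairpin-opening nuclease Artemis, by 1.35 (SE 0.10).

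Immunoglobulin chains are folded in the endoplasmic reticulum by chaperones and disulfide isomerases. Of 15 tested genes of this kind, 7 were called higher, 1 lower (Ero1a at −0.37) and 7 were not called, beside 27.0% higher and 26.6% lower of all genes tested, with a median log2 fold change of 0.22. The disulfide isomerase Pdia4 rose by 0.60 (SE 0.09) and the chaperone calreticulin, Calr, by 0.42 (SE 0.08). The count called higher was 3 without untreated replicate 3 and 4 without untreated replicate 2, dox replicate 1 or dox replicate 3, and 11 without dox replicate 2. Of 15 tested genes that mark B cell stages, 8 were called higher, 2 lower (Spn and Cd24a) and 5 were not called (Flt3, Il7r, Cd93, Ly6d and Il2ra), with a median of 0.49, beside the same shares of all genes tested. The count called lower was 4 without dox replicate 2. Of the stage genes called higher, Cd40 passed the filter on low counts through the dox libraries, with 9, 1 and 4 reads untreated against 172, 40 and 81. The smallest p-values were those of 3 genes of later B cells, Cd22 (3.20, SE 0.13), Ms4a1 (4.06, SE 0.22) and Tnfrsf13c (2.22, SE 0.12).

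Library totals were 14185203 to 15612435 reads. The 8 markers used to check B lineage identity summed to 5313 to 5496 CPM untreated and 7047 to 7749 CPM after dox. Myeloid transcripts were present at a lower level, and most of the tested myeloid markers were called higher after dox, beside 27.0% of all genes tested. Some passed the filter on low counts through the dox libraries. Adgre1 had 8, 1 and 1 reads untreated against 32, 22 and 21 after dox, and Mpo 3, 10 and 20 against 107, 23 and 27. The counts of markers called therefore cannot be compared with that share. The neutrophil markers summed to 107, 83.0 and 97.8 CPM in the untreated libraries and to 498, 106 and 236 CPM after dox, all 7 of the tested markers of 9 being called higher, with S100a9 and S100a8 the most abundant. The neutrophil sums of the groups overlapped, dox replicate 2 lying just below untreated replicate 1. The macrophage and monocyte markers, led by Lyz2 and Vcam1, summed to 29.1, 20.1 and 25.8 CPM against 113, 51.0 and 63.9 CPM, with 8 of 9 called higher. Both sums were highest in replicate 1 and lowest in replicate 2 of each group, as Iglc1 was, and their part in the result was not tested.

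Of the other marker lists, that of dendritic cells followed the same order of libraries, and the rest did not. The T cell list summed to 267 to 347 CPM untreated and 85.2 to 134 CPM after dox, nearly all of it Lck. Cd3e and Cd8a had 0 reads in all libraries, and Cd5 and Trac had 1 to 23 reads in each. The natural killer list summed to 3.29 to 5.64 CPM against 3.36 to 9.88 CPM, with Klra8 at 0 reads. Klrb1c, its most abundant gene, had 42, 50 and 69 reads against 30, 132 and 38 and was not called. Prf1, with 2, 3 and 10 reads against 17, 9 and 19, was called higher (edgeR adjusted p = 0.0433), with overlapping groups. The plasma cell list summed to 1365 to 1572 CPM against 1736 to 2314 CPM, mostly Irf4 and Xbp1, which B cell progenitors also express, with Tnfrsf17 at 0 or 1 reads. Its tested genes went both ways. Irf4, Xbp1 and Prdm1 were called higher, and Sdc1 (log2 fold change −1.55) and Jchain (−1.72) lower, beside 27.0% higher and 26.6% lower of all genes tested. The dendritic cell list summed to 25.6, 19.5 and 24.6 CPM against 33.4, 16 and 27.2 CPM, and its part in the Iglc1 result was not tested either. The sum was mostly Bst2, at 22.4, 18.8 and 23.4 CPM against 30.8, 13.7 and 25.3 CPM, followed by Flt3. Bst2 alone was highest in replicate 3 of the untreated group. Siglech, Zbtb46 and Xcr1 had 0 to 3 reads in each library, while Itgax was called higher, with 3, 2 and 4 reads against 20, 15 and 12. The erythroid list summed to 3.62 to 5.30 CPM against 1.25 to 7.17 CPM and the megakaryocyte list to 0.280 to 0.408 CPM against 0.418 to 0.921 CPM. The stroma and endothelium list, mostly Pecam1, summed to 94.8 to 103 CPM against 130 to 161 CPM.

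**Figure D5:**
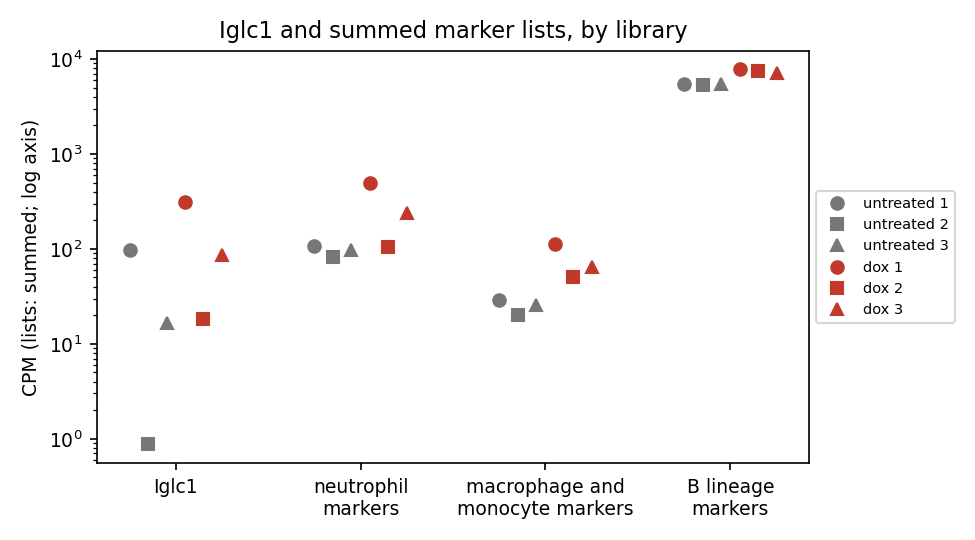
Level of Iglc1 and summed levels of the neutrophil, macrophage and monocyte, and B lineage markers in each library (CPM, log axis; untreated libraries left, dox libraries right of each position). Iglc1 spans 0.872 to 311 CPM and the neutrophil sum 83.0 to 498 CPM, both highest in dox replicate 1, whereas the B lineage sum stays between 5313 and 7749 CPM.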

How the data were processed

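RNA-seq libraries from 6 mice (3 untreated, 3 after dox) were analysed. The authors deposited raw read counts per gene, identified by Entrez number, with a gene length in bases. Per the submitters' processing notes, the build was mm9 and CASAVA 1.8.2 and featureCounts were used. For the aligner, the annotation, the strand setting and the treatment of reads with several matches, nothing is given in the sources used here. The deposited counts of single libraries and of the whole table differed in 0 values.

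RefSeq symbols matched 24176 of 26286 identifiers (2110 did not match). Genes passing filterByExpr (minimum count 10), which held 99.9% of reads, were tested on the deposited counts with edgeR 4.0.16 (TMM scaling, quasi-likelihood test, Benjamini-Hochberg adjustment over all genes, threshold 0.05) in R 4.3.3. The quasi-likelihood test was tested on simulated data. CPM and RPKM were computed from the counts with TMM-scaled totals and the deposited lengths. Log2 ratios between genes used a pseudocount of 0.5 reads and exact permutation tests with SciPy 1.17.1. P-values measure the spread between these mice, all of which carried the same leukemia.

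The genes and gene lists (169 entries, 168 matched; Iglc4 was the entry not matched) were chosen with earlier results of these data known. Named are the 5 genes; the 3 genes of each list with the smallest p and those behind counts of 5 or fewer; the 2 most abundant markers of each list; the 3 genes nearest in profile; and the 2 nearest tested genes on each side. The lambda and kappa segments beyond these, and other genes named for their role, were chosen after their values were seen. Alternatives were other scalings (DESeq2 size factors, upper quartile, total counts), no filter or 1 CPM in 3 libraries, DESeq2 1.42.0, limma 3.58.1 voom, a replicate block, Vpreb1 and Vpreb2 summed, and each library left out in turn. Sequences came from RefSeq (GRCm38.p6) and GENCODE M21 and were aligned with Biopython 1.88. Figures were drawn with matplotlib 3.10.9.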

Additional observations from a re-analysis of the deposited data

How the results depend on the processing

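Igll1, Vpreb1 and Vpreb3 kept their direction and their call under all 15 alternatives, with log2 fold changes of 0.71 to 0.86, 0.64 to 0.83 and 0.61 to 0.78. Members called higher numbered 3 to 4 and called lower 0. Vpreb2 changed its call when its reads were summed with those of Vpreb1 (log2 fold change 0.64), and the sum reversed the small differences in the log2 ratios of Vpreb1 to Igll1 (−0.15) and of Vpreb3 to Vpreb1 (0.060); both follow from counting Vpreb2 reads as Vpreb1. Same-numbered libraries correlated in their deviations from the group means at 0.31, 0.29 and −0.04, so numbers were not taken as pairs, though the labels do not settle it. Among libraries of unlike number, untreated 2 and dox 1 correlated at −0.34 and untreated 1 and dox 2 at −0.28. The other such values were 0.0032 to 0.025. With a replicate block Iglc1 (2.25, edgeR adjusted p = 9.10e-05), Iglv1 (2.51, 8.88e-05) and Iglj1 (2.67, 9.36e-05) were called, and genes called higher and lower over the whole table numbered 3434 and 3356. Leaving out 1 library at a time gave 0.47 to 4.0 for Iglc1, −0.043 to 0.067 for the ratio of Vpreb1 to Igll1, 0 to 1 signalling genes called lower, 3 to 11 folding genes called higher and 1 to 2 lower, and 2 to 4 stage genes called lower. With 1 library left out, receptor chain genes called higher numbered 6 to 10 (8 with all libraries) and regulators 11 to 17 (15 with all libraries). Calls over the whole table ranged from 2693 to 3534 higher and from 2791 to 3441 lower. Scaling moved the median of all genes by at most 0.026. Where no other cause is given, the cause was not tested. With 3 libraries a group, no exact permutation test could go below 0.1.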

Other observations

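Of 14 kappa variable segments with at least 100 reads in the 6 libraries together, 7 were called higher, 4 lower and 3 were not called by edgeR's quasi-likelihood test, beside 27.0% higher and 26.6% lower of all genes tested. A segment low in either group could reach that minimum through the other, as Igkv1-117 did through dox and Igkv1-88 through untreated reads. The counts therefore cannot be compared with those shares. Igkv14-111 was the most abundant, with 2508, 2935 and 2490 reads untreated against 4020, 4798 and 4399 after dox, a log2 fold change of 0.70 (SE 0.10, edgeR adjusted p = 0.000356). Igkv9-124 had 962, 1569 and 1233 reads untreated against 270, 473 and 307 after dox, a log2 fold change of −1.87 (SE 0.23, edgeR adjusted p = 0.000177). Igkv1-88, Igkv9-123 and Igkv9-129 were the other segments called lower. Igkv1-117 had 2, 3 and 4 reads untreated against 92, 49 and 49 after dox and was called higher (edgeR adjusted p = 5.21e-05).

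Other segments and a few other genes varied between mice of 1 group as Iglc1 did. Igkv2-112 had 119, 0 and 11 reads untreated and 178, 64 and 126 after dox, and was not called. Igkv1-135 had 11, 5 and 138 reads untreated and 115, 74 and 88 after dox, with its highest untreated library being replicate 3 and not replicate 1. Olig3, which encodes a neural transcription factor, had 135, 0 and 13 reads in the untreated libraries and 11, 3 and 8 after dox. Ly6k had 113, 3 and 12 reads after dox against 18, 6 and 14 untreated. These genes were singled out after their values were seen.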
